A study of Mus musculus with 10 samples.

Results

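The genes described here carry retinoic acid signalling: 3 receptors (Rara, Rarb, Rarg), 2 cytosolic binders (Crabp1, Crabp2), 3 enzymes (Aldh1a2, Dhrs3, Cyp26a1) and the uptake receptor Stra6. They were chosen by symbol, and each of the 9 matched 1 Ensembl ID among the 31053 genes of the deposited count tables. Their RNA was read in 10 libraries of E14 mouse embryonic stem (ES) cells, a blastocyst-derived line, in all of which the cells carried a stably integrated Esrrb construct that doxycycline (DOX) can switch on. In 3 libraries the cells had been without 2iL for 96 h with DOX in the medium, in 3 libraries they had been without 2iL for 96 h and without DOX, and in 4 libraries they were still in 2iL without DOX. 2iL holds ES cells in the naive state by blocking GSK3 with CHIR99021 (3 µM) and MEK with PD0325901 (1 µM) and by adding LIF, a cytokine. The medium throughout was N2B27 on gelatin, and B27 in its usual form supplies a vitamin A ester; the labels do not say which form was used. Whether the line is 1 clone, and which promoter drives the construct, is likewise not stated in them. No line without the construct and no 2iL culture with DOX was among the samples analysed, so effects of DOX itself and of the construct cannot be told apart.

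Retinoic acid is made inside cells from vitamin A. Stra6 brings retinol in from its serum carrier, retinol dehydrogenases turn it into retinaldehyde, Dhrs3 turns retinaldehyde back into retinol, Aldh1a2 oxidises it irreversibly to retinoic acid, and Cyp26a1 degrades the acid. Crabp2 carries retinoic acid to the nuclear receptors, Crabp1 is held to hand it to breakdown enzymes, and the receptors bind DNA as partners of the RXR proteins. In ES cells retinoic acid is a classic trigger of differentiation towards neural and extraembryonic endoderm fates, and Cyp26a1, Rarb, Stra6 and Dhrs3 are among its known direct targets.

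The receptors bind pairs of a 6-base site, most strongly when the copies lie 5 bases apart. A search of RefSeq promoter windows (GRCm38.p6, 250 bases before to 50 bases after the annotated start) was made on both strands for this pair, in which a copy could read AGGTCA in the commonest spelling, AGTTCA in another spelling, GGGTCA in the third or GGTTCA in the last. It found 32 of 32851 windows with the pair, 0.0974% of them. Windows were present for 8 of the 9 genes (17 windows; Crabp2 had none), and the pair occurred in 2 of them, those of Rarb and Cyp26a1. They are shown because only these 2 of the genes had the pair. In the libraries Cyp26a1 was read almost only with DOX, and Rarb was too low to judge. Written in the direction of the repeat, with both copies in capitals and the spacer in lower case, the sites were as follows.
Rarb: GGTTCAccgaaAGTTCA
Cyp26a1: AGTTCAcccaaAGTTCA
The Rarb site lay on the gene's own strand at bases -53 to -37 from the start, and the Cyp26a1 site on the opposite strand at bases -32 to -16. The 250 bases before each start follow, 5′ to 3′ on the gene's strand, with the site in capitals. The Rarb stretch is chr14:16575477-16575726 (minus strand) and that of Cyp26a1 is chr19:37697558-37697807 (plus strand).
Rarb: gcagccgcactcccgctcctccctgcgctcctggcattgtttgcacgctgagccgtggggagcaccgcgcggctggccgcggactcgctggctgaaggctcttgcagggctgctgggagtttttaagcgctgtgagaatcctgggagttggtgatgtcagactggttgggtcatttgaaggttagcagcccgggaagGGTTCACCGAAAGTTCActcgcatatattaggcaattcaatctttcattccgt
Cyp26a1: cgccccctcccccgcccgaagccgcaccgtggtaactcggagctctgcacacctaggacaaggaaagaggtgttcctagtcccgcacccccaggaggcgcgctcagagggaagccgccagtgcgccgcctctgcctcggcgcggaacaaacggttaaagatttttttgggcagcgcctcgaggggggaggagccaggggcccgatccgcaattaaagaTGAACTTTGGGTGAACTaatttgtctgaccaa
The same hexamers spaced by 2 bases or by 1 base were in 0.268% and 0.222% of all windows and in 0 of the 17 windows of these genes. The letters AAGGTCA, the core of the sequence that Esrrb binds and one that can overlap a receptor hexamer, were in 4.72% of all windows and in 0 of the 17.

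Libraries held between 1253620 and 4715450 reads in genes, taken from 3′ ends of polyA RNA, so a gene's read number is not scaled by its length and levels are not compared between genes here. The shallowest, 96 h DOX exp1_2, stood apart from the other 9. Its 9 fibroblast markers summed to 2103 CPM (counts scaled to a fixed total of reads in genes), with 0 of the 9 at 0 reads, against 1.82 to 24.9 CPM in the other 9 libraries, of which each had 2 to 7 at 0 reads. Col1a2 (1288 CPM) and Col1a1 (595 CPM) made up most of that sum, and Lum and Twist2, at 0.798 CPM each, were not raised. Its 6 macrophage markers summed to 67.8 CPM, with 1 of the 6 at 0 reads. In the other 9 libraries they summed to 8.33 to 30.8 CPM, with 3 to 5 at 0 reads. Cd68, a macrophage marker, went the other way, at 5.58 CPM against 8.33 to 29.9 CPM. The gene Gm42418 took 14.8% of its reads, against 3.39% to 6.61% in the other 9, mitochondrial protein genes 3.10%, against 0.559% to 1.27%, and ribosomal protein genes 7.04%, against 13.01% to 16.36%. Its deposited file also carries a later date than the rest, so values without it are given where it moves a result. Naive markers summed to 429 to 530 CPM with DOX, 165 to 194 CPM without DOX and 2111 to 2401 CPM in 2iL, and extraembryonic endoderm markers to 276 to 491, 15.8 to 25.9 and 5.06 to 9.69 CPM in the same order. Neural markers summed to 198 to 271 CPM with DOX, 376 to 539 without and 51.2 to 64.3 in 2iL, and formative epiblast markers to 1185 to 1814, 2458 to 2835 and 212 to 241 CPM. Summed endoderm markers were thus highest with DOX, as Rara and Cyp26a1 were, and summed neural and formative markers highest without DOX, as Crabp2 was. Over no DOX, edgeR's quasi-likelihood test (adjusted p below 0.05) called 6 of 7 tested endoderm markers higher with DOX, or 4 without 96 h DOX exp1_2. It called 1 of 6 neural (2 without that library) and 2 of 6 formative markers lower. Of all genes tested, 2.16% were called higher and 0.945% lower. Sox1, Pax6 and Lef1 of the neural and formative lists were not lower (0.24, 0.01 and 0.18 log2 units). The part of these markers in these results was not tested. In these bulk libraries fewer cells of a type and less RNA per cell cannot be told apart.

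Esrrb, the gene of the construct, averaged 18.1 ± 7.70 CPM with DOX, 23.0 ± 9.21 CPM at 96 h without DOX and 314 ± 62.5 CPM in 2iL (SD, n = 3, 3 and 4; CPM scaled by TMM here and below). It was not higher with DOX (log2 fold change -0.32 ± 0.33 SE, edgeR's quasi-likelihood adjusted p = 0.704). Reads from the 3′ end of the gene show the construct only if it carries that end, which the labels do not say.

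Among the receptors, Rara was higher with DOX, Rarg was higher at 96 h than in 2iL whether or not DOX was present, and Rarb was close to absent. Rara (ENSMUSG00000037992, chromosome 11, 98927818 to 98974942), the receptor found in most tissues, had 26.3 (exp1_1), 29.9 (exp1_2) and 45.6 CPM (exp2_1) with DOX, and 8.78 (exp1_1), 6.02 (exp1_2) and 12.3 CPM (exp2_2) without DOX. All 3 DOX libraries lay above all 3 libraries without DOX, with no overlap. Rara rose with DOX by 1.92 ± 0.39 log2 units over no DOX (95% interval 1.12 to 2.73, adjusted p = 0.00687). Taken by experiment, the gain was 1.93 in the first and 1.89 in the second. In 2iL its level lay between those of the 96 h groups, at 20.3, 17.2, 14.1 and 11.4 CPM. Against 2iL, the DOX libraries were higher without overlap and by 1.11 ± 0.35 log2 units (adjusted p = 0.0310), whereas the libraries without DOX overlapped 2iL at 96 h (-0.81 ± 0.37, adjusted p = 0.133).

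The gain of Rara over 2iL was uneven between experiments. It was 0.58 log2 units within experiment 1 and 1.84 within experiment 2, where 1 DOX library was set against 2 of 2iL. The test of that difference gave an adjusted p of 0.773 by edgeR's quasi-likelihood test. Without 96 h DOX exp2_1 the gain over 2iL was 0.84 log2 units and missed the threshold (adjusted p = 0.168), and it was also lost without any single one of 2iL exp1_2, exp2_1 and exp2_2 (0.0593, 0.0727 and 0.0843). Over no DOX the call held without each library in turn and was lost within experiment 1 alone (1.95 log2 units, adjusted p = 0.0697).

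Rarg (ENSMUSG00000001288, chromosome 15, 102234938 to 102257517), the receptor best known from epiblast, skin and cartilage, had 40.5 (exp1_1), 106 (exp1_2) and 23.9 CPM (exp2_1) with DOX, and 38.3 (exp1_1), 62.1 (exp1_2) and 70.9 CPM (exp2_2) without DOX. In 2iL it had 14.0 (exp1_1), 20.1 (exp1_2), 7.35 (exp2_1) and 6.63 CPM (exp2_2), below every 96 h library. Its rise on removal of 2iL was 2.24 ± 0.43 log2 units without DOX (95% interval 1.33 to 3.14, adjusted p = 0.000745) and 2.19 ± 0.44 with DOX (1.27 to 3.11, adjusted p = 0.00150). By experiment it was 1.56 in the first and 3.34 in the second without DOX (adjusted p of that difference 0.583 by edgeR's quasi-likelihood test), and 2.10 and 1.77 with DOX. The 96 h groups overlapped each other, and their difference was -0.04 ± 0.45 log2 units (95% interval -0.97 to 0.89, adjusted p = 0.978). This mean hides opposite values: with DOX minus without it, Rarg differed by 0.54 log2 units within experiment 1 and by -1.57 within experiment 2. The test of the difference between experiments gave an adjusted p of 0.857 by edgeR's quasi-likelihood test (0.0126 before adjustment). Between the 2iL libraries of the experiments none of the tested members was called by edgeR (1, Rarg, at an unadjusted p below 0.05), where 0.0357% of genes were called.

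The highest Rarg value came from 96 h DOX exp1_2, the library with fibroblast markers. Without that library Rarg was 1.41 ± 0.39 log2 units above 2iL with DOX (adjusted p = 0.0166) and -0.82 ± 0.41 log2 units relative to no DOX (adjusted p = 0.436). The part of those markers, and of the shares of Gm42418, mitochondrial and ribosomal protein reads in that library, in its level was not tested.

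**Figure D1:**
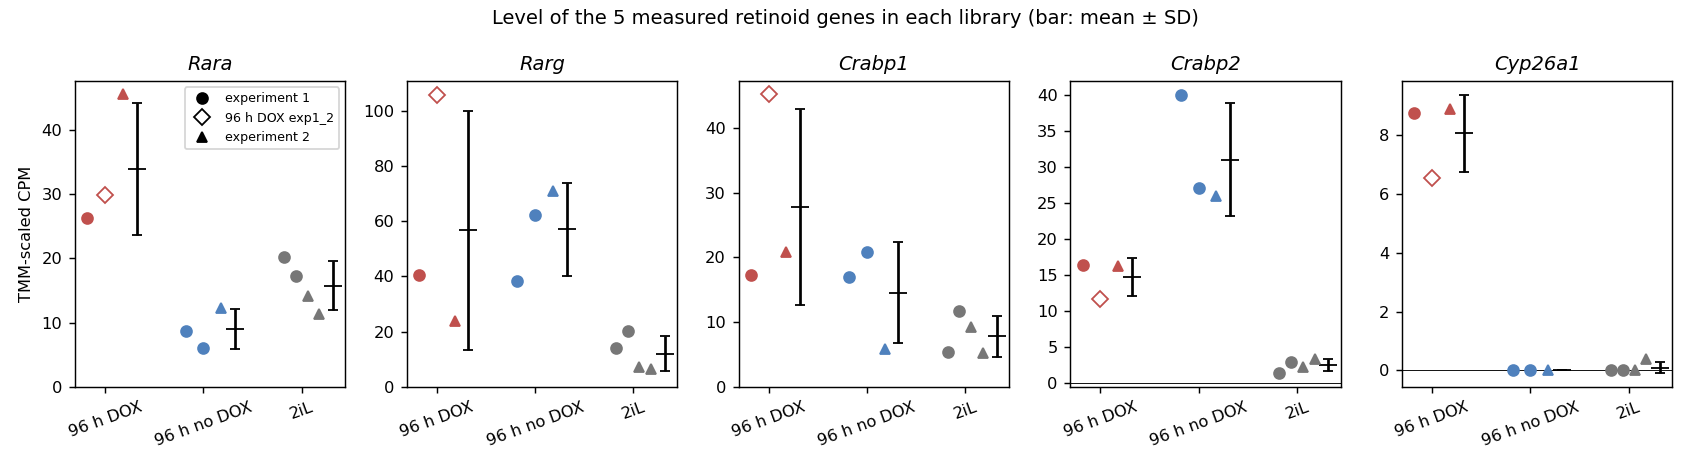
TMM-scaled CPM of the 5 genes that passed the filter, 1 panel per gene, with the 3 libraries of 96 h DOX, the 3 of 96 h without DOX and the 4 of 2iL from left to right; circles are experiment 1, triangles experiment 2, the open diamond is 96 h DOX exp1_2, and bars are mean ± SD. Rara and Cyp26a1 stand highest with DOX, Crabp2 stands highest without DOX, and the open diamond is the highest point for Rarg (106 CPM) and Crabp1 (45.2 CPM).

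The binders moved in different ways. Crabp2 (ENSMUSG00000004885, chromosome 3, 87948666 to 87953376), which delivers retinoic acid to the receptors, had 16.3 (exp1_1), 11.7 (exp1_2) and 16.2 CPM (exp2_1) with DOX, and 40.1 (exp1_1), 27.1 (exp1_2) and 26.1 CPM (exp2_2) without DOX. It was lowest in 2iL, at 1.33, 2.92, 2.14 and 3.32 CPM. The 3 groups did not overlap, and their order was 96 h without DOX, 96 h with DOX, then 2iL. Crabp2 rose over 2iL by 3.66 ± 0.40 log2 units without DOX (adjusted p = 1.04e-06) and by 2.61 ± 0.41 with DOX (adjusted p = 0.000120). Between the 96 h groups the difference was -1.05 ± 0.38 log2 units with DOX, a p of 0.0120 that did not pass after adjustment (edgeR's quasi-likelihood test, adjusted p = 0.164; 95% interval -1.85 to -0.26). It had the same sign within experiment 1 (-1.26) and experiment 2 (-0.68).

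Crabp1 (ENSMUSG00000032291, chromosome 9, 54764748 to 54773110), the other binder, had 17.3 (exp1_1), 45.2 (exp1_2) and 20.8 CPM (exp2_1) with DOX, and 17.0 (exp1_1), 20.8 (exp1_2) and 5.86 CPM (exp2_2) without DOX. In 2iL it had 5.32, 11.7, 9.18 and 5.16 CPM. Only the DOX group lay wholly above 2iL, and neighbouring groups overlapped. The gain with DOX over 2iL was 1.78 ± 0.46 log2 units (adjusted p = 0.0108). This call was lost without 96 h DOX exp1_2, the library with fibroblast markers, the shares described above and the highest Crabp1 (1.26 ± 0.48 log2 units, adjusted p = 0.0850), and within experiment 1 alone (adjusted p = 0.0526). The differences of 0.89 ± 0.46 log2 units without DOX over 2iL (adjusted p = 0.201) and 0.89 ± 0.48 with DOX over no DOX (adjusted p = 0.404) did not pass, and their 95% intervals reached 1.85 and 1.90. The first of these had opposite signs by experiment, 1.15 in experiment 1 and -0.29 in experiment 2, and the second was 0.72 and 1.83.

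**Figure D2:**
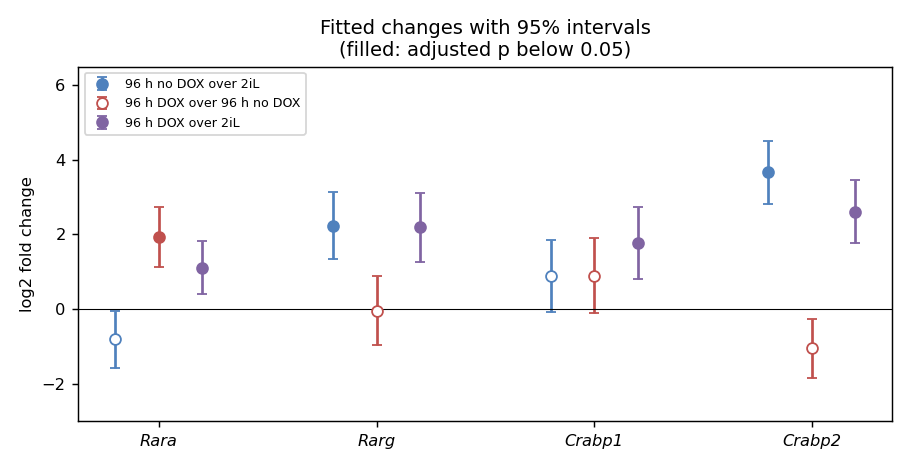
Log2 fold change with its 95% interval for Rara, Rarg, Crabp1 and Crabp2 in the 3 comparisons (blue, 96 h without DOX over 2iL; red, 96 h with DOX over without; purple, 96 h with DOX over 2iL); filled points have an adjusted p below 0.05. Only Rara is filled in the comparison of DOX with no DOX, at 1.92, while Rarg (2.24) and Crabp2 (3.66) are filled for removal of 2iL.

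Ratios within a library do not depend on how libraries are scaled to each other. There were 1.54 (exp1_1), 3.54 (exp1_2) and 0.523 (exp2_1) Rarg reads per Rara read with DOX, and 4.37 (exp1_1), 10.3 (exp1_2) and 5.76 (exp2_2) without DOX. In 2iL the ratio was 0.689, 1.17, 0.522 and 0.581. All 3 libraries without DOX thus had a higher ratio than any DOX or 2iL library, and the DOX libraries overlapped 2iL. Crabp2 reads per Crabp1 read were 0.945 (exp1_1), 0.258 (exp1_2) and 0.779 (exp2_1) with DOX, and 2.36 (exp1_1), 1.30 (exp1_2) and 4.45 (exp2_2) without DOX. The 2iL libraries had 0.25, 0.25, 0.233 and 0.643. Here too the libraries without DOX lay above both other groups, which overlapped each other. The mean log2 ratio with DOX minus that without was -2.17 for Rarg to Rara and -2.06 for Crabp2 to Crabp1. An exact permutation test of 3 libraries against 3 cannot give a two-sided p below 0.1, so none is given.

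**Figure D3:**
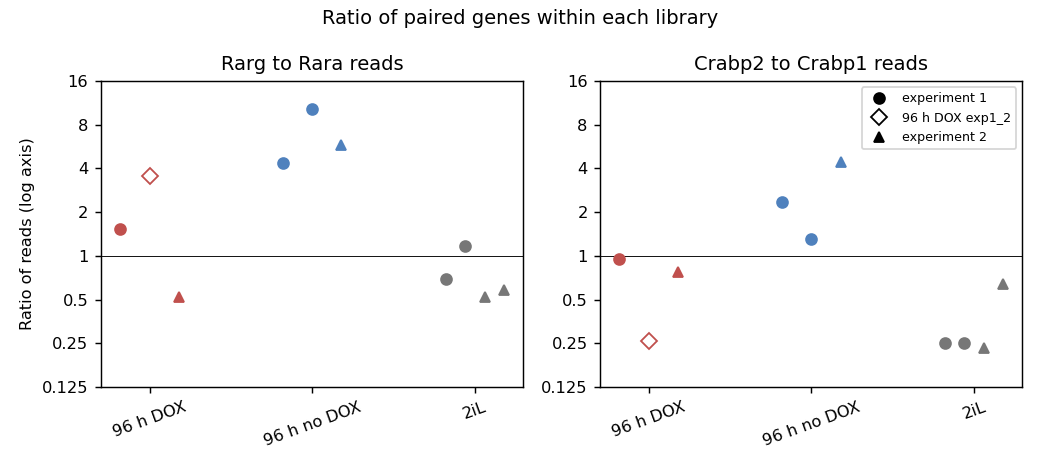
Reads of Rarg per read of Rara (left) and of Crabp2 per read of Crabp1 (right) in each library on a log axis, with 96 h DOX, 96 h without DOX and 2iL from left to right and symbols by experiment. The libraries without DOX, at 4.37 or more on the left and 1.30 or more on the right, stand above all others.

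Of the enzymes, Cyp26a1 (ENSMUSG00000024987, chromosome 19, 37697798 to 37701536), the hydroxylase that clears retinoic acid, was read almost only with DOX. It had 37 (exp1_1), 9 (exp1_2) and 29 reads (exp2_1) with DOX, or 8.76, 6.56 and 8.88 CPM, and 0 reads in each of the 3 libraries without DOX. In 2iL it had 1 read, in exp2_2. The library with fibroblast markers had the lowest of the 3 values with DOX. Over no DOX the gain was at least 34.3-fold, with the group without DOX set at a floor of 3 reads over its 11563366 reads (edgeR's quasi-likelihood adjusted p = 0.00386). Over 2iL the ratio of reads was 115, with an exact 95% counting interval of 20.1 to 4618 (edgeR's quasi-likelihood adjusted p = 0.000819). Within experiment 1 alone, with 2 libraries a group, the call over no DOX was just missed (adjusted p = 0.0533). Intervals and floors built from reads cover counting error only. Cyp26a1 reached the level of the filter only in the DOX libraries, so its adjusted p values carry that choice.

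The other 4 genes were too low to judge. Rarb (ENSMUSG00000017491, chromosome 14, 16430839 to 16819156), the receptor that retinoic acid induces and whose promoter site is shown above, had 1 read with DOX (exp1_2), 0 reads without DOX and 5 reads in 2iL (4 in exp1_2 and 1 in exp2_1). Exons of Rarb overlap those of Top2b on the opposite strand, and the counting is not stated to use strand. Aldh1a2 (chromosome 9, 71215789 to 71296243), which makes retinoic acid, had 6 reads with DOX, 6 without and 5 in 2iL. Dhrs3 (chromosome 4, 144892827 to 144928209), which lowers retinaldehyde, had 4, 7 and 4 reads in the same order. Stra6 (chromosome 9, 58063788 to 58153996), the retinol importer, had 5, 7 and 4 reads. Together they had 54 reads, with 0 to 5 in any library, and each had at least 1 library of every group at 0 reads. No library reached the 3.00 CPM that the filter asks of 3 libraries, and a fit without the filter gave adjusted p values from 0.316 to 1 for them. A count of 0 allows up to 3 reads, which is 0.356 CPM over the DOX group, 0.259 over the group without DOX and 0.231 over 2iL. The few reads above that do not show equal levels either.

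**Figure D4:**
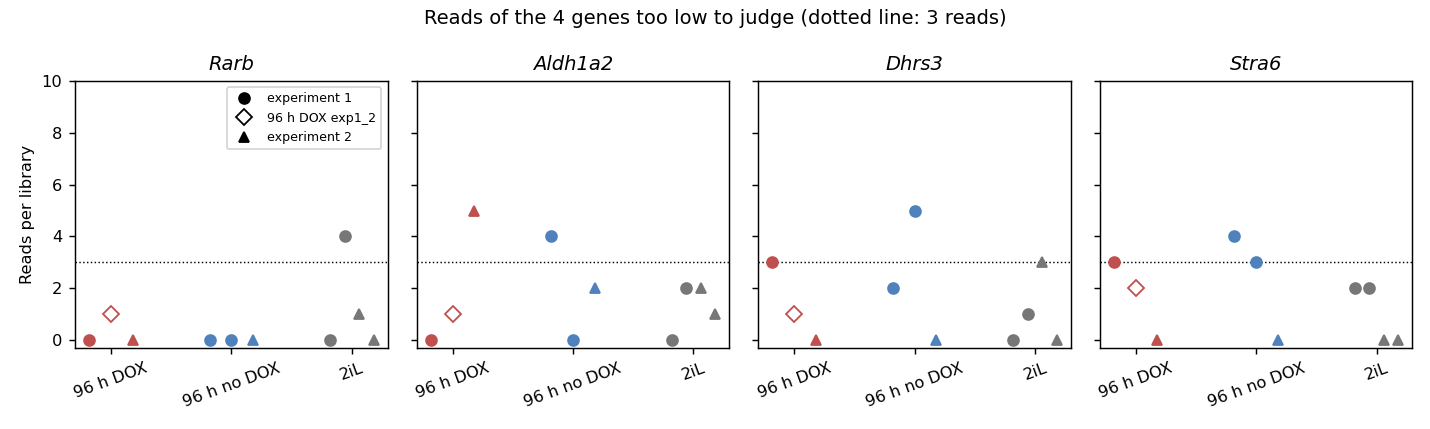
Reads per library of Rarb, Aldh1a2, Dhrs3 and Stra6, with 96 h DOX, 96 h without DOX and 2iL from left to right and symbols by experiment; the dotted line marks 3 reads. The points lie between 0 and 5 reads in all groups.

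Of the 9 genes 5 were tested, and the shares given here are over tested genes. Read as counts, 2 of the 5 were called at 96 h without DOX against 2iL, both higher (Rarg and Crabp2). Of all 11215 tested genes 20.4% were called there, 11.5% higher and 8.90% lower. With DOX against no DOX 2 of the 5 were called, both higher (Rara and Cyp26a1), where 3.10% were called, 2.16% higher and 0.945% lower. With DOX against 2iL all 5 were called, all higher, where 16.7% were called, 9.84% higher and 6.83% lower. Both comparisons with DOX use the same DOX libraries. The 5 genes tested include Cyp26a1, which reached the level of the filter only in the DOX libraries, and Crabp2, which reached it in all 96 h libraries and in 1 of 4 in 2iL, so these counts carry that choice with them.

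Between the 96 h groups few other genes of the pathway passed the test, and many were too low for it. Of 26 other genes of retinoid uptake, storage and metabolism, 10 could be tested. At 96 h without DOX against 2iL, 2 rose and 2 fell (median log2 fold change 0.23, against 0.00 over all genes tested). Rbp7, a cellular retinol binder, rose to 8.50 ± 0.48 CPM without DOX, against 2.73 ± 1.68 CPM in 2iL, and Rdh11, a retinol dehydrogenase, to 41.1 ± 1.63 against 17.8 ± 9.15 CPM. Rdh13, a relative of it in mitochondria, fell to 17.0 ± 3.23 CPM, against 33.6 ± 6.90 CPM in 2iL, and Retsat, which saturates retinol, to 2.07 ± 1.58 against 14.3 ± 8.78 CPM. With DOX against no DOX none of the 10 was called by edgeR's quasi-likelihood test, and 1, Retsat, had an unadjusted p below 0.05 (median -0.21). Retsat had 7.10 (exp1_1), 17.5 (exp1_2) and 7.04 CPM (exp2_1) with DOX, and 0.878 (exp1_1), 3.87 (exp1_2) and 1.46 CPM (exp2_2) without DOX. These groups did not overlap, and the difference was 2.22 ± 0.70 log2 units (95% interval 0.77 to 3.67, adjusted p = 0.0980). Without 96 h DOX exp1_2, its highest library with DOX, the difference was 1.70 ± 0.71 log2 units (edgeR's quasi-likelihood adjusted p = 0.301). With DOX against 2iL Rbp7 and Rdh11 rose (median -0.13). Rdh11 lost that call without 96 h DOX exp1_2. Rdh10, a retinol dehydrogenase named whatever its values, had 3.63 ± 2.72 CPM with DOX, 5.58 ± 2.07 without and 4.38 ± 0.721 in 2iL. Cyp26b1, the relative of Cyp26a1, was too low to test, with 6, 41 and 14 reads, as was the serum carrier Rbp4, with 0, 26 and 7 reads, and Aldh1a1, a retinaldehyde dehydrogenase, with 20, 2 and 0 reads, all given with DOX, without DOX and in 2iL. The last was chosen after its values were seen. Aldh1a1 had 1.89 (exp1_1), 6.56 (exp1_2) and 0.918 CPM (exp2_1) with DOX, and 9 of the 20 reads came from exp1_2.

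All 21 RXR partners and coregulators could be tested. Rxra, the main partner of the receptors in early embryos, had 27.5 ± 8.89 CPM with DOX, 35.1 ± 7.84 without and 30.8 ± 9.03 in 2iL, with all groups overlapping. At 96 h without DOX against 2iL 4 rose and 2 fell (median 0.05). Fabp5, a fatty acid binder that can carry retinoic acid to another receptor, Ppard, rose to 66.7 ± 18.2 CPM without DOX, against 6.34 ± 2.98 CPM in 2iL (3.38 ± 0.36 log2 units). The partner Rxrg reached 7.35 ± 7.94 CPM, against 0.330 ± 0.386 CPM, with single libraries without DOX from 0.586 to 16.1 CPM. The coactivator gene Ncoa7 and the orphan receptor gene Nr2c1 rose by 2.08 ± 0.44 and 2.48 ± 0.83 log2 units. Ncoa3, a receptor coactivator, fell to 31.7 ± 10.5 CPM without DOX, against 56.1 ± 4.37 CPM in 2iL, and Kat2b, a histone acetyltransferase, to 14.2 ± 1.56 against 30 ± 6.82 CPM. With DOX Ncoa3 was at 62.6 ± 4.36 CPM, the only one of the 21 called over no DOX (0.98 ± 0.27 log2 units, edgeR's quasi-likelihood adjusted p = 0.0498, median of the list 0.15), and without 96 h DOX exp1_2 its adjusted p was 0.0563. Against 2iL Ncoa7, Fabp5 and Nr2c1 were higher with DOX (median 0.01). Without that library Nr2c1 was no longer called and Rxrg was.

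Genes that retinoic acid is known to induce gave mixed values. Of 25 on the list 10 could be tested, and 10 of the 15 left out are Hox genes. With DOX against no DOX 1 of the 10 was called, higher (median 1.01). Stra8, the meiosis gene named for its induction by retinoic acid, had 7.37 ± 4.38 CPM with DOX and 0.625 ± 0.575 CPM without, and did not pass (3.37 log2 units, adjusted p = 0.0812). Its highest value with DOX, 12.4 CPM, came from exp1_2. Leaving that library out gave 2.82 ± 1.17 log2 units (edgeR's quasi-likelihood adjusted p = 0.296). At 96 h without DOX against 2iL 1 rose and 1 fell (median -1.48 over those with reads in either group). Meis2, a partner of Hox proteins, fell to 8.40 ± 3.49 CPM, against 32.8 ± 4.67 CPM. Without 96 h DOX exp1_2 in the fit, 4 genes fell in this comparison in place of 1, Cdx1 and Nr2f2 among them. The high 2iL values of both came from experiment 2. Nr2f2 had 19.9 and 28.4 CPM in 2iL there, against 3.51 CPM without DOX. In experiment 1 it had 6.31 and 4.67 CPM in 2iL, against 4.97 and 4.08 CPM without DOX. Cdx1 had 46.2 and 42 CPM in 2iL of experiment 2. It had 0.665 and 1.75 CPM in 2iL of experiment 1, against 1.46 and 0.859 CPM without DOX. With DOX against 2iL 2 rose and 2 fell (median 0.32). The 2 that fell were Meis2 and the homeobox gene Gbx2, at 12.8 ± 11.6 and 2.44 ± 0.290 CPM. Hoxb1, a Hox gene that answers retinoic acid early, had 1 read with DOX, 7 without and 15 in 2iL. Meis1 had 0, 13.1 and 4.29 CPM in the DOX libraries exp1_1, exp1_2 and exp2_1, against 0.215 to 0.585 CPM without DOX.

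**Figure D5:**
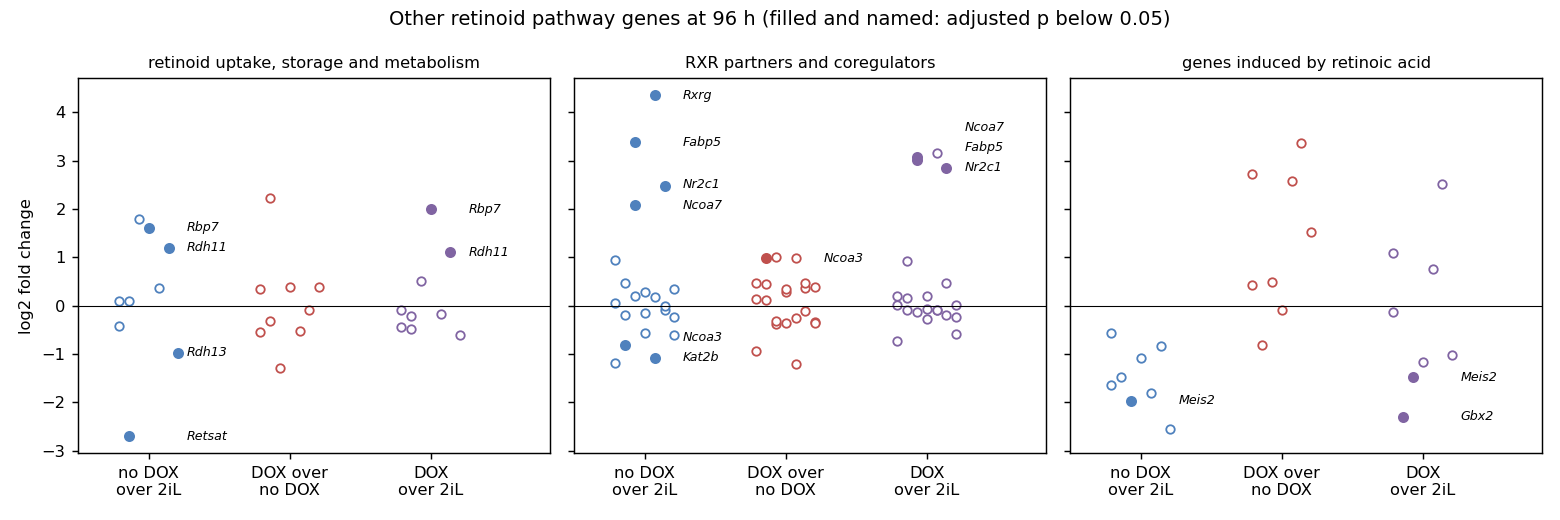
Log2 fold change of the tested genes of 3 lists (left, retinoid uptake, storage and metabolism; middle, RXR partners and coregulators; right, genes induced by retinoic acid) in the 3 comparisons; filled points are named and have an adjusted p below 0.05. A few listed genes are not plotted. In the comparison of DOX with no DOX the only filled point is Ncoa3, at 0.98.

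Profiles were also compared with those of 8508 other genes over the 10 libraries, as the root mean square difference of centred log2 CPM, so that 0 means the same ups and downs. Among the genes most like Rara were Dlc1 (0.34) and Wwtr1 (0.37), which encodes the Hippo coactivator TAZ. Crabp2 was most like Castor2 (0.30), Syt11 (0.34) and Sh3pxd2b (0.34), and Syt11 averaged 24.5 CPM with DOX, 54.3 without and 3.79 in 2iL. Nearest to Rarg were Thy1 (0.39), Zfhx3 (0.41) and Zcchc3 (0.41), and Thy1 is itself on the list of fibroblast markers, with 8.83 CPM with DOX, 11.3 without and 1.27 in 2iL. For Crabp1 they were Serinc1 (0.33), Pyurf (0.39) and Reep6 (0.40). Cyp26a1 had the least close neighbours, Rcsd1 (0.55), Gdpd5 (0.59) and Susd3 (0.59), and Susd3 averaged 11.8 CPM with DOX, 0 without and 0.219 in 2iL.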

How the data were processed

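Gene expression was measured in 10 libraries prepared as 3′ digital gene expression of polyA RNA, per the labels. Reads were aligned with STAR 2.6.0a to mm10 and counted with HTSeq, per the submitters' processing notes; the annotation release and the strand setting of the counting are not stated there. The deposited values are read counts per Ensembl gene made by the authors. A table of the same libraries in CPM, with 10 columns, was not used. The 5 HTSeq summary lines were left out; they held 62.7% to 68.4% of all reads, mostly reads with several alignments (56.4% to 62.4%). Symbols came from a reference name table (30934 of 31053 IDs) and positions from GENCODE vM21 on GRCm38/mm10.

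The filter on low counts was filterByExpr with the 3 groups and a minimum of 10 counts, and 11215 genes passed. Libraries were scaled by TMM, and edgeR 4.0.16 in R 4.3.3 fitted a robust quasi-likelihood model to all 10 libraries. Comparisons were contrasts of group means, called at a Benjamini-Hochberg adjusted p below 0.05 over all genes tested; every adjusted p is from this fit unless another setting is named. Standard errors come from the fold change and the F statistic. Levels are CPM of all reads in genes divided by the TMM factor, as mean ± SD; marker sums are CPM without TMM. The fit was tested on simulated data. The members, lists and comparisons were chosen with earlier results of these data known; the ratios and the test of 2iL libraries between experiments were added after the values were seen. Named genes were the 9 members, up to 4 called genes per direction and list, fixed defining genes, Esrrb, and the 3 most similar profiles for each called member (mean of at least 10 CPM in 1 group, no clone names). Some genes that this rule or the lists hold are not reported here. Replicates correlated at 0.866 to 0.961 across genes. Titles name experiments and library numbers but no separate cultures, so p-values measure the spread between these libraries, which may be technical. Alternatives used RLE scaling, library totals, other filters, DESeq2 1.42.0, limma 3.58.1 on log2(CPM + 1), only the 2 groups compared, replicate blocks, experiment 1 alone, and each library left out.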

Additional observations from a re-analysis of the deposited data

Results flagged for a closer look

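Among the members in the 4 libraries of 2iL, 1 value stood far from the rest: Cyp26a1 had 0.368 CPM in 2iL exp2_2, from 1 read, against 0 reads in the other 3 libraries. A single read sets this value, and with 0 reads in the other 3 libraries any read at all would have been flagged.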

How the results depend on the processing

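Over 20 alternatives per fitted value, fewer for Cyp26a1 without DOX against 2iL where both groups had 0 reads, 279 of 297 member values kept their direction and their side of the threshold, 11 kept the direction and lost the call, and 7 changed sign. All 7 were Rarg with DOX against no DOX, which was never called: 0.068 with library totals alone, 0.078 with a replicate block for each library number of each experiment, 0.54 within experiment 1, and 0.16, 0.35, 0.02 and 0.13 without DOX exp1_1, DOX exp2_1, no-DOX exp1_2 and no-DOX exp2_2; over all libraries left out it ran from -0.82 to 0.35. Leaving out 1 library gave 2 members called each time for removal of 2iL and for DOX against no DOX, and 4 to 5 for DOX against 2iL. Within experiment 1 alone, with fewer libraries, the members called were 0 by edgeR for DOX against no DOX (3 at an unadjusted p below 0.05) and 3 for DOX against 2iL. Genes called over all tested were then 1226, 108 and 926 for removal of 2iL, DOX against no DOX and DOX against 2iL. For DOX against no DOX the count of genes was 563 with DESeq2, 564 without a filter, 212 with only the 2 groups compared, and 161 to 358 when 1 library was left out; the cause was not tested. The ranges for removal of 2iL and for DOX against 2iL were 1779 to 2718 and 1408 to 1916. With that finer replicate block, DOX against no DOX gave 159 genes and 1 member (Rara missed, adjusted p = 0.0652), and Rara missed against 2iL (0.0741). Libraries sharing experiment and number deviated together only weakly (correlations -0.10 to 0.20 over 8 pairs), so they share a number and are not shown to be paired; with the experiment alone as a replicate block the counts were 2244, 347 and 1815. Depth limits Rarb, Aldh1a2, Dhrs3 and Stra6 most: 3 reads amount to 0.636 to 2.39 CPM in a library.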

Other observations

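The 2iL libraries of the 2 experiments differed in some genes that retinoic acid can induce, picked here after their values were seen. Cdx1, a homeobox gene that beta-catenin signalling also induces, had 46.2 and 42 CPM in experiment 2 and 0.665 and 1.75 CPM in experiment 1. Hoxb4 had 7.35 and 2.58 CPM in experiment 2, against 0 and 0.292 CPM in experiment 1. Both were too low in most libraries to pass the filter with all 10 libraries, so this difference was not tested for them. Cdx1 did pass the filter when 96 h DOX exp1_2 was left out. The mesoderm gene T differed in the same direction, by 4.53 log2 units (experiment 2 over 1, 2 libraries each, edgeR's quasi-likelihood adjusted p = 0.0120), and was 1 of the 4 genes called among 11215 (0.0357%). None of the tested members was called in this comparison; Rarg differed by -1.28 log2 units (edgeR's quasi-likelihood adjusted p = 0.746).

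The library 96 h DOX exp1_2 also held the highest values of several listed genes. Nr2f2, an orphan nuclear receptor of mesenchyme, had 72.9 CPM there and 3.55 and 3.98 CPM in the other DOX libraries, and Zfp703 had 63.4 CPM against 4.50 and 8.57 CPM. The retinol dehydrogenase gene Dhrs9 had 13.8 CPM there and 0 to 0.293 CPM in the other 9 libraries. The part of the fibroblast and macrophage markers of this library in these values was not tested.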
